A study of Mus musculus with 12 samples.

Results

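Skin from mice labelled ticks 2x was set against skin from mice labelled first exposure, 3 libraries against 3, chosen by those labels from the 12 RNA-sequencing libraries of a mouse tick infestation series. All 6 libraries came from bitten skin of mice, sampled 4 days after a tick bite. The first exposure mice are labelled as having met ticks once. Whether 2x includes the bite that was sampled is not stated in the labels, and neither are the strain, sex or age of the mice or the tick species. Nothing says that each library is a separate animal, so p-values measure only a spread between libraries, pooled over the 11 libraries of the fit. The other 6 libraries are skin labelled ticks 3x (3), unbitten naive skin (2) and a single bitten skin labelled saliva immune. The labels also give the 2 naive libraries day 4 after a bite, although they are described here as unbitten. Replicate numbers used here follow the order of deposit and pair nothing. Of the 25070 genes in the deposited table, 16588 reached 1 CPM (reads of a gene per M reads of its library, M standing for mega) in at least 2 of the 6 libraries and were tested.

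Hosts bitten again by ticks can reject them, and the skin at such a bite is known to gather basophils, mast cells and eosinophils. Basophils and mast cells bind IgE on the high affinity receptor Fcer1 and release histamine, which is made by histidine decarboxylase (Hdc). Neutrophils and monocytes are called into bitten skin by chemokines of the Cxcl and Ccl families, and macrophages that meet IL-4 or IL-13 take on an alternatively activated state. The comparison asks which of these programmes differ between skin that has met ticks before and skin that meets them for the first time.

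The 6 libraries held between 16.1 M and 28.6 M estimated reads, and 3 reads, taken as the detection floor, came to between 0.105 and 0.186 CPM (counting error only). The epidermal and dermal genes Krt5, Krt14, Krt1, Krt10, Lor, Flg, Col1a1 and Col3a1 were abundant in all 6, with the lowest value, 60.9 CPM, for Flg in first exposure replicate 1. The libraries were not alike in tissue. The mean of 26 hair shaft and inner root sheath genes on log2(CPM + 1) came to 9.24, 9.55 and 1.15 for first exposure replicates 1 to 3, and to 9.09, 2.25 and 0.30 for those of 2x. First exposure replicates 1 and 2 and 2x replicate 1 are therefore called hair-rich, and the other 3 hair-poor. Each class holds 1 library of one group against 2 of the other, so that a difference between the classes cannot be told apart from 2x replicate 1 and first exposure replicate 3, the single libraries. The sample titles put first exposure in 1 numbered series, with the saliva immune library, and 2x in another, with ticks 3x and naive skin. Exposure and title series cannot be told apart within these 6 libraries.

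No gene passed the test. With limma on log2(CPM + 1), 0 genes were called higher in 2x (0% of 16588) and 0 lower (0%) at a Benjamini-Hochberg adjusted p below 0.05, and the smallest adjusted p was 0.0833. At an unadjusted p below 0.05, 1085 genes lay higher (6.54%) and 1592 lower (9.6%). The 3 libraries of 2x all lay above the 3 of first exposure for 1136 genes (6.85%) and all below them for 1804 genes (10.9%). These shares are the background against which the counts of gene groups are given. Without first exposure replicate 3, the hair-poor library of its group, limma called 59 genes higher and 120 lower. Without 2x replicate 1, the hair-rich library of its group, it called 2 higher and 0 lower. With array weights, a fit that did not converge and gave first exposure replicate 1 a weight of 165 where the others had 0.189 to 2.5, it called 2168 and 4118. Every fold change below is a log2 difference, 2x minus first exposure, on log2(CPM + 1), which understates the change of genes of low level, and none is a called change.

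Rnase2a, an eosinophil-associated ribonuclease (GRCm38.p6 chromosome 14, 51255261 to 51256112), had the largest log2 difference of the genes named by rule. It was at 1.22, 1.34 and 4.66 CPM after first exposure and at 56.7, 134 and 126 CPM in 2x. Every 2x library lay far above every first exposure library, whatever its hair content. The log2 difference was 5.01 ± 0.73 (SE, n = 3 and 3, limma adjusted p = 0.0833). The ticks 3x libraries were at 153, 206 and 27.8 CPM and naive skin was at 6.01 and 2.8 CPM, so that high levels were found in both repeat exposure groups and not in unbitten skin. The saliva immune library was at 320 CPM. In bulk skin, more cells of a type and more RNA per cell cannot be told apart.

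Of 8 tested eosinophil and eotaxin genes, Rnase2a among them, 4 had libraries without overlap, all higher in 2x, and the list median was 0.96 against -0.08 over all genes tested. The median was 0.53 without first exposure replicate 2 and 1.42 without replicate 3. Within the hair-rich libraries it was 1.3, and within the hair-poor ones 0.14. Adgre1, which encodes a surface protein of macrophages and eosinophils, was at 28.6, 13.6 and 70 CPM after first exposure and 54.3, 75.1 and 46.8 CPM in 2x, and the groups overlapped. Ccl24, eotaxin-2, which attracts eosinophils, was chosen after its values were seen: it was at 5.03, 6.18 and 16.3 CPM against 19.9, 27.9 and 26.4 CPM, without overlap (log2 difference 1.49, limma adjusted p = 0.132). Siglecf, a surface lectin of eosinophils also chosen afterwards, was low, at 0.664, 0.167 and 1.34 CPM against 1.52, 1.53 and 1.99 CPM. The granule protein gene Prg2 was listed at 0 reads in all 3 first exposure libraries and in 2x replicate 1, and reached only 0.159 and 0.373 CPM in 2x replicates 2 and 3.

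**Figure D1:**
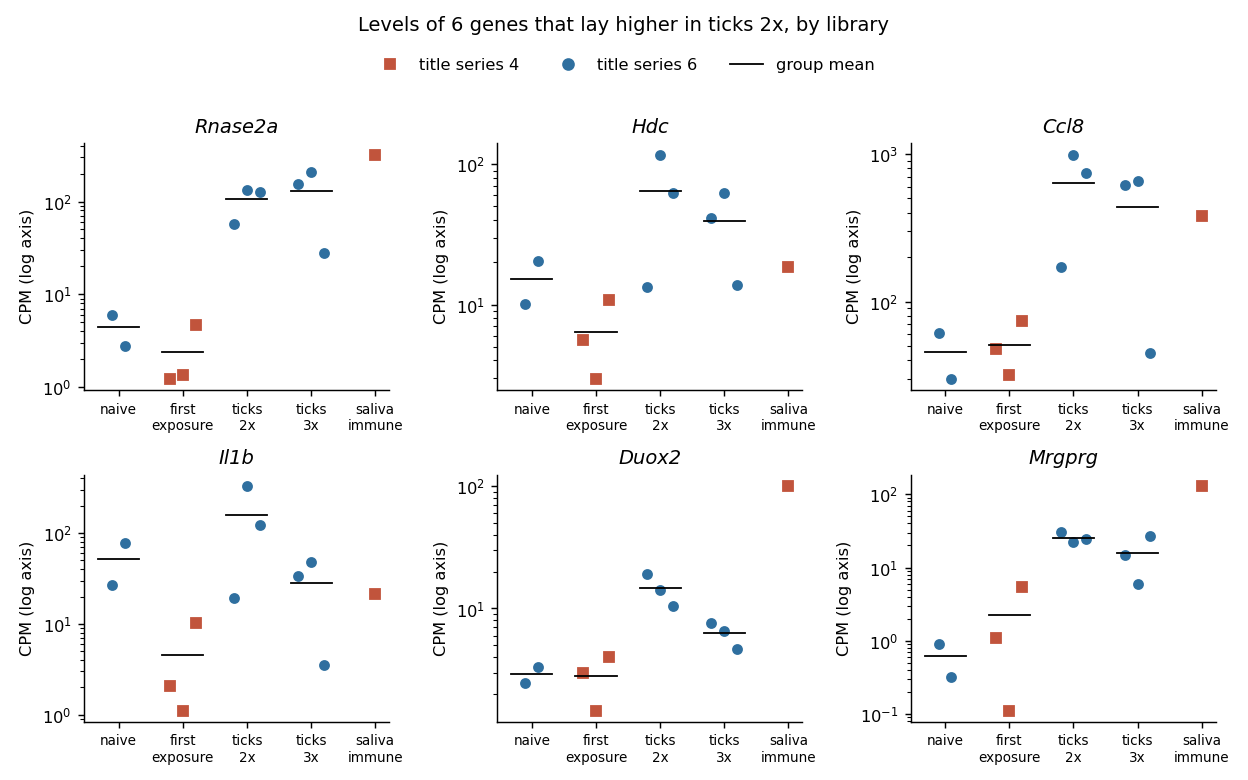
CPM of Rnase2a, Hdc, Ccl8, Il1b, Duox2 and Mrgprg in each library on a log axis, by group, with the shape and colour of a point giving its title series and the line the group mean. For each gene the 3 libraries of ticks 2x lie above the 3 of first exposure, and for Hdc, Ccl8 and Il1b 2x replicate 1, the leftmost of its group, is the lowest of the 3.

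Basophil and mast cell genes lay higher in 2x as groups. Of 15 tested basophil genes, 11 had no overlap and all 11 were higher in 2x, with a list median of 1.48. Of 18 tested mast cell genes, 13 had no overlap, again all higher, with a median of 1.31. These lists share several genes, among them Cpa3, Hdc, Ms4a2 and Fcer1a. The mast cell chymase Mcpt4 was at 47.8, 22.7 and 111 CPM after first exposure and at 133, 130 and 129 CPM in 2x. The 2x libraries were nearly equal, whereas first exposure spread widely and its hair-poor replicate 3 came close to them. Cpa3, the carboxypeptidase of mast cell granules, was at 42.8, 18.4 and 103 CPM against 130, 138 and 104 CPM, where first exposure replicate 3 nearly reached the lowest 2x library. Cd63, a granule membrane protein that appears on the surface of activated basophils, was at 132, 140 and 151 CPM against 164, 266 and 270 CPM, without overlap. Which cells of bulk skin gave these Cd63 reads was not tested. The mast cell median was 1.57 within hair-rich libraries and 0.26 within hair-poor ones. Mean log2(CPM + 1) over the mast cell list came to 3.14, 2.51 and 3.84 for first exposure, to 4.18, 4.54 and 4.31 for 2x and to 3.28 and 3.16 for naive skin.

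The genes of IgE binding and histamine followed the lists. Hdc (chromosome 2, 126593659 to 126624025) was at 5.56, 2.95 and 10.7 CPM after first exposure and at 13.4, 117 and 62.2 CPM in 2x, without overlap. Its log2 difference was 2.82 ± 0.8 (SE, limma adjusted p = 0.179) and ranged from 2.17 without 2x replicate 2 to 3.68 without 2x replicate 1. Fcer1a, the IgE-binding chain of the receptor, was chosen after its values were seen and was at 0.944, 0.0558 and 3.54 CPM against 6.34, 9.09 and 4.59 CPM. In both genes the groups did not overlap, but the lowest 2x library lay close to first exposure replicate 3. Mcpt8, a protease made by basophils and not by skin mast cells, was under the floor in first exposure replicates 1 and 2 (0.07 and 0.0558 CPM). In replicate 3 of that group it was at the floor (0.129 CPM). In 2x it was under the floor in replicate 1 (0.0493 CPM) and at 6.18 and 5.15 CPM in replicates 2 and 3. The groups overlapped and the adjusted p was 0.369 by limma. Ticks 3x was also split, with 6.91 and 7.57 CPM in replicates 1 and 2 and no read in replicate 3. Both naive libraries had none. By hair content the splits ran opposite ways. The hair list mean was 9.09 in 2x replicate 1, the highest of its group, and 0.34 in ticks 3x replicate 3, the lowest of its group. The basophil median was 1.18 within hair-rich libraries and 0.95 within hair-poor ones.

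The cytokines and chemokines that recruit neutrophils had the highest median of all lists described, 3.51 over 12 tested genes. Of these 12, 6 had no overlap, all higher in 2x. Il1b, the inflammasome-processed cytokine interleukin 1 beta, was at 2.06, 1.11 and 10.3 CPM after first exposure and at 19.1, 329 and 122 CPM in 2x (log2 difference 4.48 ± 1.19, SE, limma adjusted p = 0.162). All 2x libraries were higher, and the 2 hair-poor ones by far the highest. Cxcl5, a neutrophil chemokine, was at 0.769 CPM, no read and 1.47 CPM after first exposure and at 0.393, 203 and 49.2 CPM in 2x, so that 2x replicate 1 lay inside the first exposure range. Within hair-rich libraries the list median was 0.50 and within hair-poor ones 2.9. Neutrophil genes had medians of 0.57 and 2.71, and 5 of 12 had no overlap, all higher. Their median over all libraries was 2.24 and ranged from 1.5 without 2x replicate 2 to 3.14 without 2x replicate 1. Unbitten naive skin did not lie with first exposure here. Mean log2(CPM + 1) over the neutrophil-recruiting list came to 0.85, 0.67 and 1.66 for first exposure, to 1.86, 4.88 and 3.84 for 2x and to 1.92 and 2.36 for naive skin. Over the neutrophil list it came to 1.51, 1.06 and 1.59, to 1.76, 4.13 and 3.2, and to 1.99 and 2.5 in the same groups. For both lists naive skin lay above all 3 first exposure libraries and above 2x replicate 1. S100a9, a subunit of calprotectin that neutrophils and stressed keratinocytes make, was at 8.81, 3.29 and 3.41 CPM against 9.05, 273 and 81 CPM, with 2x replicate 1 only just above first exposure replicate 1. Il1r2, the decoy receptor of interleukin 1, was at 26, 19.3 and 73.1 CPM against 36.2, 77.4 and 64.1 CPM and overlapped.

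The neutrophil chemokine genes Cxcl1, Cxcl2 and Cxcl3, neighbours on chromosome 5, and Il6 were chosen after their values were seen, because they lay higher together and carry the same kind of promoter motif. Cxcl1 was at 0.28, 0.112 and 7.51 CPM after first exposure and at 10.2, 132 and 32.2 CPM in 2x. Cxcl2 was at 0.0351, 0.223 and 0.733 CPM against 7.47, 121 and 45.7 CPM. Cxcl3 had no read in first exposure replicates 1 and 2 and 0.0864 CPM in replicate 3, against 0.148, 87 and 43.3 CPM. None of the 3 chemokines overlapped between the groups, but 2x replicate 1 was only at its detection floor for Cxcl3 (0.148 CPM). In each the order within 2x was replicate 2, replicate 3, replicate 1. Il6, the acute phase cytokine, was at 0.175, 0.0558 and 1.55 CPM against 2.85, 92.9 and 33.4 CPM, in that same order. The 120 bases before the start of each gene are given from RefSeq (GRCm38.p6, forward strand), at chr5:90891125-90891244 for Cxcl1, chr5:90903779-90903898 for Cxcl2, chr5:90785981-90786100 for Cxcl3 and chr5:30012994-30013113 for Il6, with a match to the kappa B motif of the NF-kappa B factors in capitals.
Cxcl1: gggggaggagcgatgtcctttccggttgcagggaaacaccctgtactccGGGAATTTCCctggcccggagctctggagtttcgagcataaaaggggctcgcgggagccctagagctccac
Cxcl2: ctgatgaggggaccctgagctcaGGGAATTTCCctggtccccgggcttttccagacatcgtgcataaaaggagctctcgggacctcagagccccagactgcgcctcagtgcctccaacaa
Cxcl3: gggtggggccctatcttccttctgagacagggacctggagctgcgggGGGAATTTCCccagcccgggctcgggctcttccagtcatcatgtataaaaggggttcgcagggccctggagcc
Il6: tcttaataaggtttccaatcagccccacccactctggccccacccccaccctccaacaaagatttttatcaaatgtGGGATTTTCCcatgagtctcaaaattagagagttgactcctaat
The match begins at positions -71, -97, -73 and -44 from the start, and its letters are the same in the 3 chemokines. The 10 letters GGGAATTTCC, searched on both strands, occur in the 250 bases before the start of 28 of 27025 genes (0.104%), and GGGATTTTCC in 20 (0.074%). The kappa B motif as a whole was found in 4 of 11 genes of the neutrophil-recruiting list with a promoter in the table (36.4%), in 1 of 8 monocyte chemokine genes (12.5%), in 3 of 16 immediate early genes (18.8%) and in 668 of 11829 tested genes (5.65%). A match describes letters only.

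Chemokines for monocytes lay higher in 2x in hair-rich and hair-poor libraries alike. Of 11 tested genes, 9 had no overlap, all higher, with a list median of 2.7, and medians of 1.95 within hair-rich and 1.94 within hair-poor libraries. Ccl8, a chemokine of monocytes and type 2 T cells (chromosome 11, 82115185 to 82116799), was at 48, 31.7 and 73.8 CPM after first exposure and at 172, 990 and 740 CPM in 2x. The groups were far apart, with a log2 difference of 3.35 ± 1.02 (SE, limma adjusted p = 0.193). Outside the comparison Ccl8 was at 61.3 and 29.9 CPM in naive skin, 383 CPM in the saliva immune library, and 612, 661 and 44.7 CPM in ticks 3x, whose replicate 3 was within the first exposure range. The mean of the whole list in naive skin, at 3.5 and 3.07, lay above first exposure replicates 1 and 2 (2.38 and 1.86) and on either side of replicate 3 (3.45), and below all 3 libraries of 2x (3.93, 5.39 and 5.05). Ccl6, a chemokine of myeloid cells, was at 92.7, 66.2 and 251 CPM against 254, 665 and 609 CPM. Ccl2 and Ccl7, ligands of the monocyte receptor Ccr2, were chosen after their values were seen. Ccl7 was at 2.34, 0.446 and 20 CPM against 39.9, 141 and 115 CPM (log2 difference 4.23), and Ccl2 at 2.55, 0.78 and 20.5 CPM against 25.5, 76.3 and 44.4 CPM (3.14). In both, first exposure replicate 3 stood well above the other libraries of its group and still below 2x. Without that library limma called both genes higher.

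Macrophage genes lay higher to a smaller extent. All 20 tested monocyte and macrophage genes had a log2 difference above 0, with a median of 1.04, but only 4 had no overlap. The median was 1.2 within hair-rich and 0.48 within hair-poor libraries. Mean log2(CPM + 1) over the list was 5.93 and 5.26 in naive skin, within the range of first exposure (5.32, 4.62 and 6.31). Lyz2, the lysozyme of macrophages and neutrophils, was at 264, 175 and 721 CPM against 496, 588 and 294 CPM, with first exposure replicate 3 the highest of the 6. Cd163, the scavenger receptor for haemoglobin complexes, was at 72.7, 51.4 and 158 CPM against 142, 1210 and 722 CPM, where only 2x replicate 1 lay inside the first exposure range. All 13 alternatively activated macrophage genes lay above 0 too, with a median of 1.64, 5 without overlap, and medians of 1.02 and 1.12 within hair-rich and hair-poor libraries. Mean log2(CPM + 1) over this list was 3.62, 3.34 and 4.43 for first exposure and 4.33, 5.91 and 5.56 for 2x. Naive skin was at 4.56 and 4.19, so that naive replicate 1 lay above 2x replicate 1. Mrc1, the mannose receptor, was at 115, 69.8 and 247 CPM against 184, 836 and 471 CPM. Il4ra, the receptor chain shared by IL-4 and IL-13, was at 45.2, 31.5 and 115 CPM against 52.9, 493 and 282 CPM. Both genes overlapped between the groups because of 2x replicate 1. Arg1, the arginase of this macrophage state, was chosen after its values were seen and was at 31.9, 37.1 and 45.4 CPM against 41.1, 354 and 445 CPM, again with 2x replicate 1 inside the first exposure range.

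**Figure D2:**
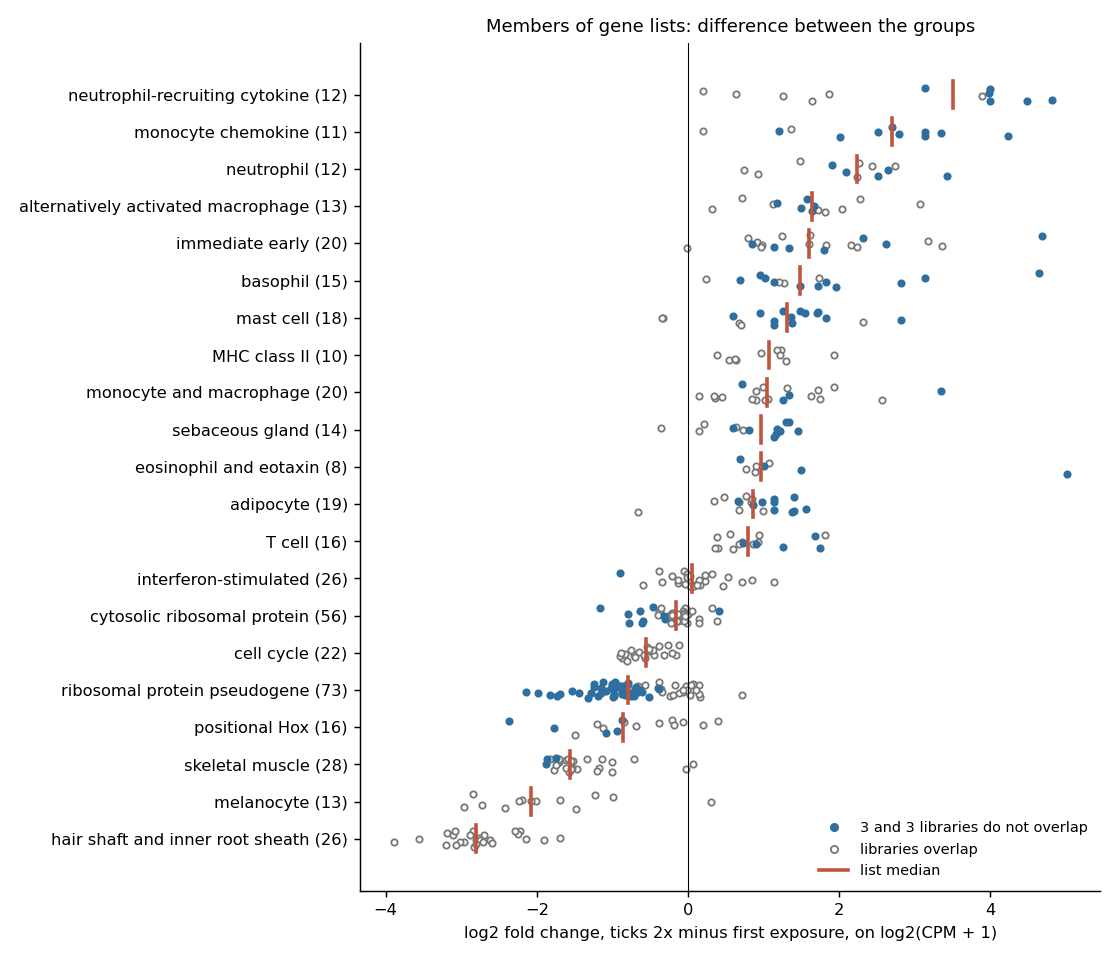
Log2 difference, ticks 2x minus first exposure, of each tested member of 21 gene lists, with the number tested in brackets, filled points for genes whose 3 and 3 libraries do not overlap and a bar for the list median. Neutrophil-recruiting cytokines have the highest median (3.51) and hair shaft genes the lowest (-2.81), and no hair shaft gene has libraries without overlap.

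Lymphocyte genes were also compared. Of 16 tested T cell genes, 5 had no overlap, all higher in 2x, with a median of 0.79 and medians of 0.49 and 0.51 within hair-rich and hair-poor libraries. The median ranged from 0.42 without first exposure replicate 2 to 1.22 without replicate 3. Thy1, a surface protein of T cells and some fibroblasts, was at 121, 95.1 and 193 CPM against 150, 234 and 135 CPM. Cd3g, a chain of the T cell receptor complex, was at 4.86, 0.836 and 12.5 CPM against 4.18, 14.8 and 9.62 CPM, and both genes overlapped. Cd4, which marks helper T cells, was at 0.664, 0.334 and 1.55 CPM against 1.77, 15.1 and 3.17 CPM, without overlap but with a narrow gap (log2 difference 1.68, limma adjusted p = 0.305). Without 2x replicate 2 the difference in Cd4 was 0.93. Il10, an anti-inflammatory cytokine, was at 0.105, 0.0558 and 0.431 CPM against 2.26, 7.87 and 2.98 CPM (log2 difference 2.04, limma adjusted p = 0.259). All 2x libraries were above the floor for Il10 and 2 of the first exposure libraries were not. Naive skin was at 6.15 and 3.12 CPM, in the range of 2x. Il4 was too low to test, at 0.105, 0.223 and 0.259 CPM against 0.246, 0.793 and 0.683 CPM.

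None of the 10 MHC class II genes was free of overlap, although all 10 lay above 0 with a median of 1.07, which was 0.59 without first exposure replicate 2 and 1.67 without replicate 3. Cd74, the invariant chain, was at 242, 130 and 631 CPM against 468, 719 and 733 CPM, and H2-Aa at 116, 66 and 340 CPM against 271, 386 and 378 CPM. In both, the hair-poor first exposure replicate 3 lay among the 2x libraries, and the list medians were 1.3 within hair-rich and 0.17 within hair-poor libraries. Cd207, langerin of Langerhans cells, was at 7.9, 6.07 and 33.5 CPM against 6.69, 18.3 and 23.3 CPM and overlapped fully. Interferon-stimulated genes had a median of 0.05 over 26 genes, near the -0.08 over all genes tested. Without overlap 0 were higher and 1 lower, below the background shares of 6.85% and 10.9%. Stat2, a factor that carries the interferon signal to the nucleus, was at 48.3, 33.6 and 54 CPM against 31.8, 60.5 and 48.3 CPM and overlapped.

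Duox2 and Mrgprg stood out among the genes of smallest p and belong to none of the cell lists. Duox2, an epithelial oxidase that makes hydrogen peroxide (chromosome 2, 122279246 to 122298740), was at 2.95, 1.47 and 4.04 CPM after first exposure and at 19.1, 14.2 and 10.4 CPM in 2x. Its log2 difference was 2.05 ± 0.31 (SE, limma adjusted p = 0.0833), and ticks 3x, at 7.6, 6.6 and 4.71 CPM, lay between the groups. Naive skin was at 2.45 and 3.36 CPM, like first exposure. Duoxa2, its maturation factor, was chosen after its values were seen and was at 0.21, 0.112 and 0.302 CPM against 3.74, 0.74 and 1.24 CPM. Mrgprg, an orphan receptor of the Mas-related family (chromosome 7, 143763710 to 143766993), was at 1.08, 0.112 and 5.48 CPM against 30.4, 22.5 and 24.2 CPM (log2 difference 3.43 ± 0.65, SE, limma adjusted p = 0.114). The 2x libraries were close together and well above any first exposure library. Naive skin was at 0.907 and 0.32 CPM and ticks 3x at 14.7, 5.98 and 27 CPM. Within 2x the hair-rich replicate 1 was the highest for both genes, and Duox2 lay in the order of hair content, whereas within first exposure the hair-poor replicate 3 was the highest for both.

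The wound keratin Krt6a was at 231, 223 and 37.9 CPM against 515, 234 and 91.7 CPM and overlapped (log2 difference 0.82, limma adjusted p = 0.618). Keratinocyte lists lay near 0, with medians of 0.2 for basal keratinocyte and 0.33 for cornified envelope genes, both of which turned negative within hair-poor libraries (-0.43 and -0.4). Krt5, a keratin of the basal layer, was at 2230, 1660 and 4680 CPM against 2560, 4850 and 2350 CPM, and Krt10, of the layers above it, at 2380, 1380 and 9100 CPM against 2570, 8970 and 3650 CPM. Oxtr, the oxytocin receptor, was at 6.26, 5.46 and 6.51 CPM against 7.77, 4.86 and 8.81 CPM, overlapping.

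Fat and sebaceous gland genes lay higher in 2x in most libraries. Of 19 tested adipocyte genes, 10 had no overlap, all higher, with a median of 0.86 and medians of 1.1 within hair-rich and 0.93 within hair-poor libraries. Car3, a carbonic anhydrase abundant in fat, was at 1570, 1070 and 1330 CPM after first exposure and 2100, 1750 and 2420 CPM in 2x. Fabp4, the fatty acid carrier of adipocytes, was at 773, 576 and 546 CPM against 1210, 995 and 1200 CPM (log2 difference 0.86 ± 0.24, SE, limma adjusted p = 0.17). For both genes the groups were apart, and naive skin, at 3580 and 3470 CPM for Car3 and 964 and 1110 CPM for Fabp4, lay nearer 2x than first exposure. Of 14 tested sebaceous gland genes, 9 had no overlap, all higher, with a median of 0.97. Scd1, the fatty acid desaturase, was at 1990, 889 and 2170 CPM against 2700, 1490 and 4260 CPM and overlapped, whereas Plin2, a lipid droplet coat protein, was at 108, 77.2 and 160 CPM against 222, 302 and 224 CPM without overlap.

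The remaining genes that the naming rule took as higher in 2x encode mostly enzymes and carriers. Ephx2, the soluble epoxide hydrolase, was at 44.3, 27 and 35.5 CPM against 79, 76.8 and 83.2 CPM (log2 difference 1.17 ± 0.18, SE, limma adjusted p = 0.0833). Ces1d, a carboxylesterase of adipose tissue, was at 46.7, 24.2 and 48 CPM against 140, 101 and 156 CPM, and Pde3b, the phosphodiesterase through which insulin restrains fat breakdown, at 24.6, 10.3 and 18.5 CPM against 45.6, 53 and 51.3 CPM. All 3 stood clear of first exposure in each 2x library, and naive skin, with 67.7 and 85.6 CPM for Ephx2, 130 and 197 CPM for Ces1d and 47.4 and 63.6 CPM for Pde3b, lay with 2x. Scp2, a peroxisomal sterol carrier, was at 144, 128 and 159 CPM against 228, 246 and 214 CPM, and Hebp1, a haem-binding protein, at 14.2, 12 and 14.4 CPM against 21.7, 32 and 25.5 CPM. Selk, a selenoprotein of the endoplasmic reticulum, was at 55.8, 56.2 and 62.2 CPM against 78.6, 88.4 and 87.3 CPM, the smallest difference of the 10 (0.54). Ugt1a6b, a glucuronosyltransferase, was at 8.86, 7.15 and 9.11 CPM against 18.3, 22 and 29 CPM (log2 difference 1.35, limma adjusted p = 0.0833). Its value is uncertain, because RefSeq lists 14 overlapping genes at its position on chromosome 1, most of them in the same Ugt1a family.

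**Figure D3:**
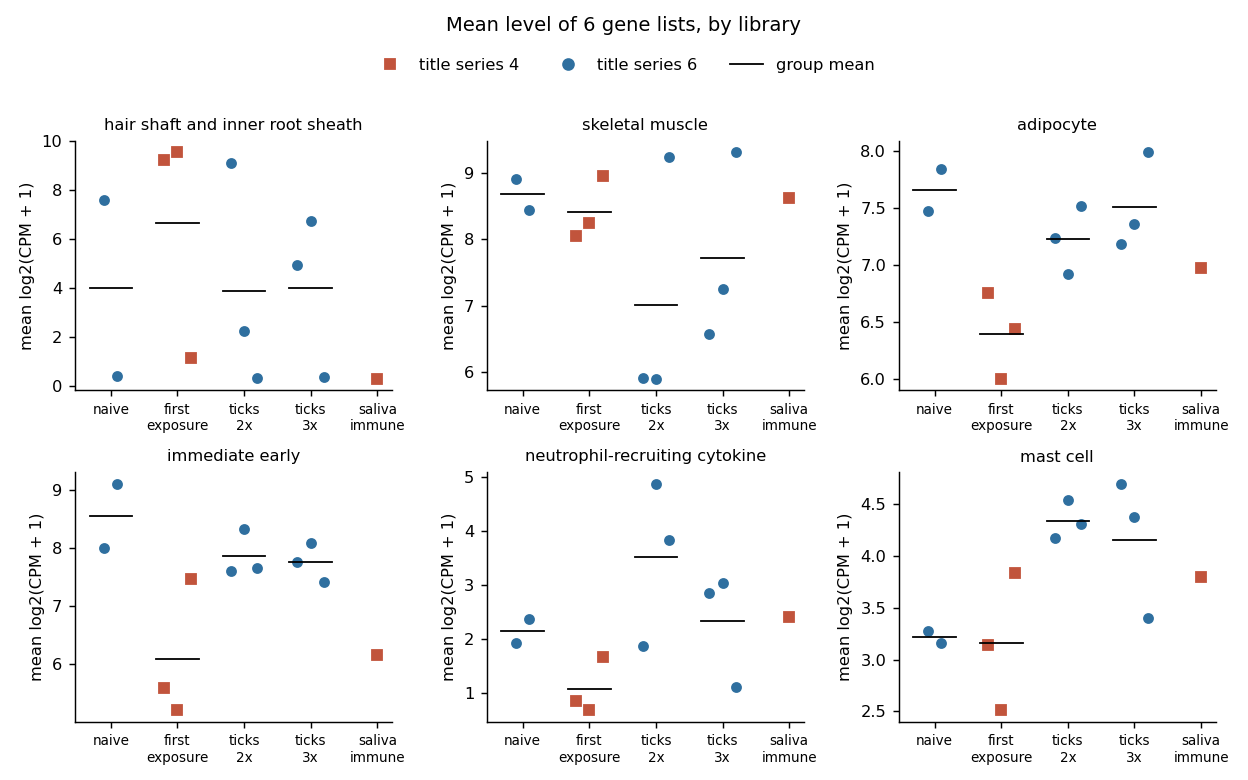
Mean log2(CPM + 1) of 6 gene lists in each library, by group, with the shape and colour of a point giving its title series and the line the group mean. Hair genes divide every group with more than 1 library, adipocyte genes lie higher in all 3 libraries of ticks 2x than in the 3 of first exposure, and immediate early genes are lowest in first exposure replicates 1 and 2 and the saliva immune library.

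Other tissue lists varied with single libraries. All 26 hair shaft and inner root sheath genes lay below 0, with a median of -2.81, which ranged from -5.68 without first exposure replicate 3 to -1.01 without 2x replicate 3. The median was -0.26 within hair-rich libraries and 0.22 within hair-poor ones. First exposure held 2 hair-rich libraries and 2x held 1. Tchh, trichohyalin of the inner root sheath, was at 9180, 9480 and 17.7 CPM against 8510, 54.3 and 4.41 CPM, and Krt71 at 5850, 6700 and 14.5 CPM against 5370 CPM, 33.8 CPM and no read. Melanocyte genes (13 tested, median -2.08) went with them: the pigment enzyme gene Dct was at 448, 787 and 5.26 CPM against 255, 1.95 and 5.28 CPM, while Ednrb, the endothelin receptor that vessels also express, was at 215, 226 and 102 CPM against 250, 243 and 154 CPM. Skeletal muscle genes had a median of -1.56 over 28 genes. Of these, 3 were lower without overlap, a share near the 10.9% over all genes tested. Acta1, the actin of muscle fibres, was at 4030, 5020 and 5310 CPM against 599, 872 and 7880 CPM, and Atp2a1, the calcium pump of fast fibres, at 2980, 3300 and 4330 CPM against 569, 581 and 6050 CPM, so that 2x replicates 1 and 2 were low in muscle and replicate 3 was not. All 22 cell cycle genes lay below 0, with a median of -0.56 and none without overlap. Mki67, the proliferation marker, was at 269, 266 and 122 CPM against 193, 115 and 63 CPM, and Top2a at 138, 132 and 78.2 CPM against 92.1, 80.3 and 42.6 CPM. The part of tissue composition in the differences above was not tested beyond these values.

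Positional genes of the Hox, Tbx and Pitx families, whose expression in skin marks body site, lay below 0 in 14 of 16 tested genes. Of the 16, 5 had no overlap, all lower, with a median of -0.86 and medians of -0.7 within hair-rich and -0.43 within hair-poor libraries. Tbx15, a T-box factor of dorsal skin, was at 68.8, 68.4 and 84.6 CPM against 56, 44.3 and 110 CPM, and Hoxd8 at 19.1, 25.2 and 24 CPM against 15.9, 14.9 and 41.4 CPM, and both overlapped, with 2x replicate 3 the highest of the 6. Hoxb6 and Hoxb7, chosen after their values were seen, were at 13.7, 17.9 and 2.98 CPM against 1.23, 1.74 and 0.31 CPM and at 9.19, 11.9 and 3.19 CPM against 1.62, 2.32 and 0.559 CPM. Ticks 3x, with 5.84, 5.66 and 4.03 CPM of Hoxb7, and naive skin, with 7.35 and 4.15 CPM, lay above all 3 libraries of 2x. The labels do not give the body site of the biopsies, and its part in these values was not tested.

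**Figure D4:**
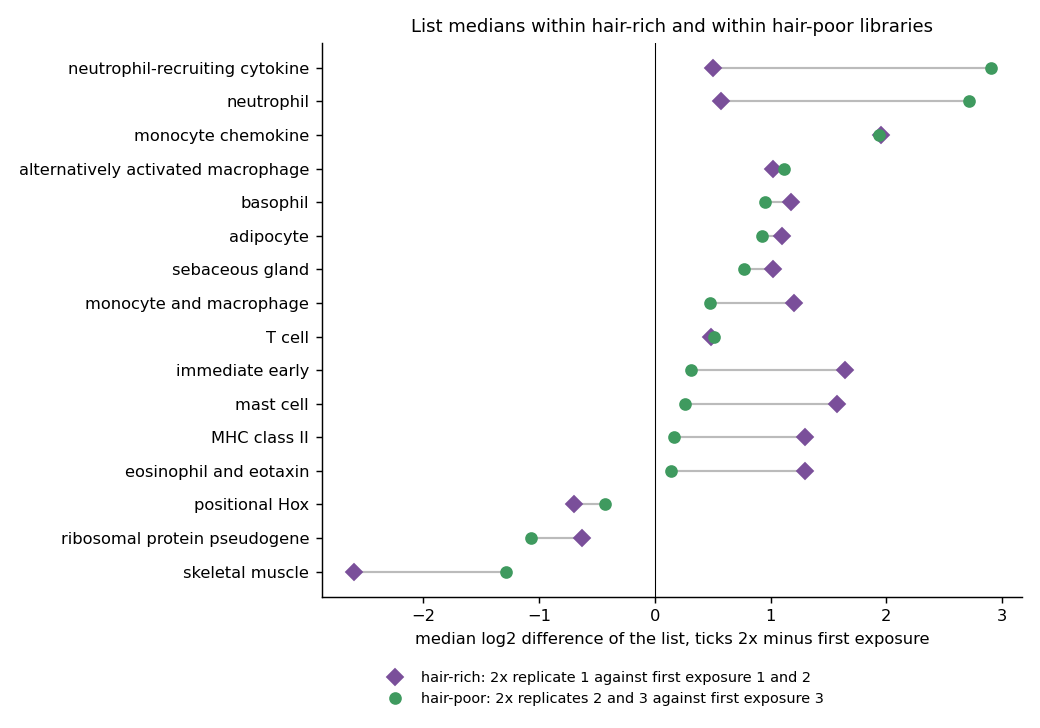
Median log2 difference, ticks 2x minus first exposure, of 16 gene lists computed within the hair-rich libraries (diamonds) and within the hair-poor libraries (circles). Monocyte chemokines have nearly the same median in both (1.95 and 1.94), neutrophil-recruiting cytokines differ in hair-poor libraries above all (0.50 and 2.9), and mast cell, MHC class II, eosinophil and immediate early genes have their larger medians in the hair-rich ones, each class having a single library on one side.

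Immediate early genes, which cells switch on within minutes of a stimulus and also of handling, had a median of 1.6 over 20 tested genes, with 7 without overlap, all higher in 2x. Fos, a subunit of the AP-1 factor (chromosome 12, 85473890 to 85477274), was at 76, 23.4 and 1050 CPM after first exposure and at 1220, 2250 and 782 CPM in 2x. First exposure replicate 3 lay inside the 2x range, and the log2 difference of 3.36 (limma adjusted p = 0.222) became 4.9 without it. Egr1, an early growth response factor, was at 190, 137 and 922 CPM against 1020, 1420 and 733 CPM, in the same pattern. The list median was 1.64 within hair-rich libraries and 0.31 within hair-poor ones. In naive skin, described here as unbitten, Fos was at 1520 and 3380 CPM, and in the saliva immune library at 219 CPM. For the 7 genes without overlap, the saliva immune library lay nearer first exposure in all 7, and the naive mean nearer 2x in 6. These 7 genes were picked for lying apart between the groups, and for them title series cannot be told apart from exposure. The whole list did not divide fully by title series. Its mean log2(CPM + 1) in first exposure replicate 3, 7.47, lay above that in ticks 3x replicate 3, 7.42.

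Of the 10 genes that the naming rule took as lower in 2x, 6 were ribosomal protein genes or their pseudogenes. Rpl3, a protein of the large ribosomal subunit (chromosome 15, 80077781 to 80083406), was at 30.7, 32.5 and 31 CPM after first exposure and at 15.7, 12.9 and 11.8 CPM in 2x (log2 difference -1.17 ± 0.17, SE, limma adjusted p = 0.0833). Rps12, of the small subunit (chromosome 10, 23785183 to 23787383), was at 102, 108 and 105 CPM against 62, 66.8 and 54.2 CPM (-0.78 ± 0.12, limma adjusted p = 0.0866). Both genes were nearly constant within first exposure, and the groups were well apart. The saliva immune library, which shares the title series of first exposure, was at 30.4 CPM for Rpl3 and 128 CPM for Rps12, and naive skin, of the other series, at 17.4 and 11.1 CPM and at 44 and 35 CPM. Of 56 tested cytosolic ribosomal protein genes, 9 were lower and 1 higher without overlap, with a median of -0.16. Over all genes tested, 10.9% were lower and 6.85% higher without overlap, with a median of -0.08. Those of highest level overlapped, Rpl4 at 1240, 1340 and 1150 CPM against 1330, 1130 and 978 CPM and Rpsa at 1040, 1140 and 919 CPM against 1070, 1050 and 891 CPM.

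Ribosomal protein pseudogenes, a list made by name after the data were seen, stood further apart. Of 136 in the table, 73 were tested and 50 of these were lower without overlap, with a median of -0.79. Over all genes tested, 10.9% were lower without overlap. A gene was tested where 2 of the 6 libraries reached 1 CPM, so low-level pseudogenes could enter through first exposure alone. The count and the median may therefore depend partly on that filter. The list means that follow cover all 136. The list mean in the 6 libraries compared was 1.75, 1.85 and 2.05 for first exposure and 1.40, 1.32 and 1.36 for 2x, and it was 2.01 in the saliva immune library and 1.23 to 1.47 in the 5 libraries of naive skin and ticks 3x. For all 50 genes the saliva immune library lay nearer first exposure, for 46 the naive mean lay nearer 2x, and for 49 the ticks 3x mean did. Rps23-ps2 was at 12.9, 13.8 and 23.5 CPM against 4.39, 3.52 and 4.6 CPM, and Rps27a-ps2 at 20, 28.3 and 28.6 CPM against 7.61, 6.18 and 3.73 CPM. Rpl17-ps10 was at 11.1, 10.2 and 20 CPM against 3.34, 1.42 and 2.16 CPM, and Rpl14-ps1 at 8.95, 6.39 and 8.48 CPM against 1.94, 1.28 and 1.32 CPM. Each of the 4 was lower in every 2x library. A pseudogene can be nearly identical to its parent gene, so that reads may be split between them depending on read length and alignment. RefSeq also lists a gene overlapping Rps23-ps2 (Rps23rg1), Rps27a-ps2 (Lca5) and Rpl14-ps1 (Trpm4). All these levels are uncertain. Gm15427, a predicted gene that the naming rule leaves out, had the smallest p of all genes lower in 2x (1.17e-05): it was at 23.2, 30.8 and 39.8 CPM against 6.34, 3.34 and 3.88 CPM, and at 33.6 CPM in the saliva immune library.

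**Figure D5:**
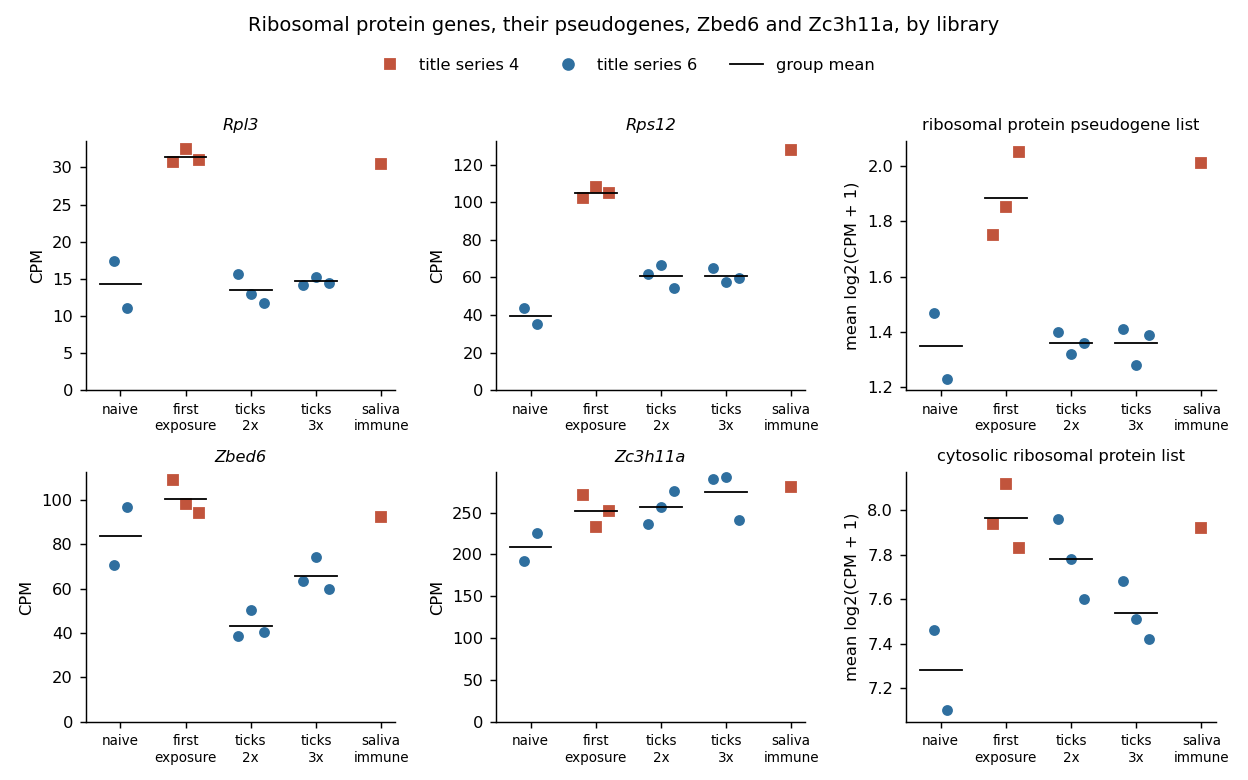
Levels of Rpl3, Rps12, Zbed6 and Zc3h11a (CPM) and list means of ribosomal protein pseudogenes and cytosolic ribosomal protein genes (mean log2(CPM + 1)) in each library, by group, with the shape and colour of a point giving its title series and the line the group mean. For Rpl3, Rps12 and the pseudogenes the 4 libraries of the first exposure title series lie above the other 8, whereas Zc3h11a does not separate the groups.

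Zbed6, a transcriptional repressor derived from a DNA transposon (chromosome 1, 133655879 to 133660885), was at 109, 98.1 and 94.1 CPM after first exposure and at 38.5, 50.2 and 40.5 CPM in 2x (log2 difference -1.21 ± 0.16, SE, limma adjusted p = 0.0833). Without first exposure replicate 3 it was among the genes called lower. RefSeq places it inside Zc3h11a, whose level was 271, 233 and 252 CPM against 236, 257 and 276 CPM and overlapped. Ticks 3x, at 63.4, 74.2 and 60 CPM of Zbed6, and naive skin, at 70.7 and 96.7 CPM, lay above all 3 libraries of 2x, with 1 naive library inside the first exposure range and the others below it. The saliva immune library, at 92.2 CPM, was close to first exposure. Zfp219, a zinc finger protein, was at 63.4, 64.1 and 42 CPM against 24.8, 20.7 and 27.8 CPM, with naive skin at 24.4 and 32.6 CPM. Tvp23a, a Golgi membrane protein, was at 9.01, 8.98 and 7.99 CPM against 3.01, 3.88 and 3.68 CPM, with naive skin between them at 5.69 and 5.6 CPM. Rnaset2b, a lysosomal ribonuclease with a near-identical copy, Rnaset2a, was at 8.68, 8.1 and 4.33 CPM against 2.15, 1.75 and 1.44 CPM, and the saliva immune library, at 1.43 CPM, lay with 2x here.

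The libraries outside the comparison were placed beside it gene by gene, in a description chosen after the data were seen. Among genes of at least 5 CPM, 924 were higher in 2x without overlap. For 50.5% of these the saliva immune library lay nearer 2x than first exposure, and for 47.9% the naive mean did. Among 1169 such genes lower in 2x, the saliva immune library lay nearer first exposure for 845, and the naive mean nearer 2x for 727. For the higher genes as a whole, the ticks 3x mean lay nearer 2x for 648 of 924 (70.1%). Of 49 granulocyte, mast cell, macrophage and chemokine genes that were higher without overlap, the saliva immune library lay nearer 2x for 31, the naive mean nearer first exposure for 34, and the ticks 3x mean nearer 2x for 42 (85.7%). Of 18 adipocyte and sebaceous gland genes, the saliva immune library was evenly divided, with 9 nearer 2x and 9 nearer first exposure, the naive mean lay nearer 2x for 12 and the ticks 3x mean for 17 (94.4%). The differences between these shares were not tested. The saliva immune group is 1 library, and naive skin differs from 2x in bite and exposure, so these shares are descriptions with no test.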

How the data were processed

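RNA was sequenced from 12 mouse skin libraries, of which 6 are compared. RNA was isolated with Qiagen RNeasy and libraries followed Illumina protocols, per the labels' protocols. STAR, Partek 8.0.19 and GRCm38.p6 are named in the submitters' processing notes, and the sources used here name neither the annotation nor the counter. The authors deposited CPM with 0.0001 added to every cell, so a value of 0.0001 is given as no read. Depth was estimated from the CPM step of 1 read, on which 73.7% to 79.4% of low values fell within 0.02 reads (at most 36.9% for unrelated steps), so no count test was run.

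Genes were compared with limma 3.58.1 (R 4.3.3) on log2(CPM + 1), with a variance trend, in a fit of first exposure, ticks 2x, ticks 3x and naive skin (11 libraries, 7 residual degrees of freedom), with p-values adjusted over 16588 genes. An exact permutation test of 3 against 3 cannot go below 0.1 and was not used. Named genes are the 10 of smallest p in each direction without overlap and with a mean of at least 5 CPM, predicted genes left out; the 2 most abundant members of each list described (1 is not reported here); and Mcpt8, Il4, Il10, Cd4, Cd207, Krt6a, Rps12, Oxtr, Rnase2a, Ccl8, Hdc and Fos. The comparison, members and lists (48 lists; 765 of 795 genes found) were chosen with earlier results of these data known. Of the symbols, 22654 (90.4%) were found in RefSeq, which gave coordinates and promoters. Dates had replaced 25 gene names. The test was checked on simulated data. Alternatives were other pseudocounts, filters, scalings, fits, weights and a hair covariate, and leaving out each library. Python 3.11.15 with pandas 2.3.3, and for figures matplotlib 3.10.9, handled the tables.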

Additional observations from a re-analysis of the deposited data

Results flagged for a closer look

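In the saliva immune library, which enters no comparison, Rnase2a was at 320 CPM, above the highest of the other 11 libraries (206 CPM, ticks 3x replicate 2). Duox2 was at 99.6 CPM there, above the highest of the others (19.1 CPM, ticks 2x replicate 1). Mrgprg was at 129 CPM there, above the highest of the others (30.4 CPM, ticks 2x replicate 1). The group is 1 library, so these are values with no test.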

How the results depend on the processing

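Of the counts of called genes under alternative settings, 33 were 0 like the reported one. The exceptions were array weights (2168 higher and 4118 lower) and leaving out 1 library, under which the counts ranged from 0 to 59 higher and from 0 to 120 lower. A fit with only the 6 libraries compared gave a smallest adjusted p of 0.323 and 1977 genes at an unadjusted p below 0.05. Of the values of named genes, 7 turned sign: Cd207 with the hair covariate (-0.21) and over left-out libraries (-0.19 to 0.95), Krt6a with array weights (-0.01) and over left-out libraries (-0.03 to 1.46), and Oxtr with array weights (-0.02). Of the list medians, 876 stayed within the spread between libraries and 35 moved by more. Leaving out 1 library moved further medians by over 1.5 times: basophil 0.96 (without first exposure replicate 2) to 1.84 (without 2x replicate 1), mast cell 0.85 to 1.79 and macrophage 0.71 to 1.59 (without first exposure replicates 2 and 3), melanocyte -3.99 to -1.11 (without first exposure replicates 3 and 2), skeletal muscle -2.66 to -0.92 (without 2x replicates 3 and 1), cell cycle -0.82 to -0.26 (without first exposure replicate 3 and 2x replicate 3) and positional genes -1.06 to -0.56 (without first exposure replicates 3 and 2). Among others, the neutrophil-recruiting median moved as much, from 2.46 to 4.23, and monocyte chemokine from 2.23 to 3.36 (without 2x replicates 2 and 1). Immediate early moved from 1.23 to 2.23 (without first exposure replicates 2 and 3). Alternatively activated macrophage moved from 1.31 (without 2x replicate 2) to 2.06 (without first exposure replicate 3). Adipocyte moved from 0.75 to 1.15 (without first exposure replicates 2 and 1). The median of all genes stayed between -0.13 and -0.02. The division by hair content and the list of pseudogenes were added after the data were seen. Genes under 0.105 to 0.186 CPM are not detectable at this depth. No paired analysis was possible because the labels carry no replicate numbers.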
